A study of Saccharomyces cerevisiae with 12 samples.

Results

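The 10 genes described here are a core set of the yeast protein quality control system. They are the HSP90 chaperone genes HSP82 and HSC82, the Clp-type disaggregase genes HSP104 and HSP78, the small heat shock genes HSP42 and HSP26, the co-chaperone genes STI1, YDJ1 and SIS1, and the transcription factor gene HSF1. They were chosen by name, and they are 10 of the 7127 rows of the count table that carry yeast (SGD) identifiers. All 10 had enough counts to be tested.

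The study set potassium restriction beside glucose restriction in budding yeast grown for work on chronological lifespan, the time that non-dividing cells stay viable. All 12 RNA sequencing libraries came from the haploid strain BY4742, labelled as wild type, a laboratory strain of alpha mating type that carries deletions at HIS3, LEU2, LYS2 and URA3. The titles name SD medium with KCl, and glucose at 2% or 0.5% was crossed with potassium (K) at 7 or 1 mM to give 4 media, each with 3 biological replicates. Here 2% glucose with 7 mM K is called the control medium, 2% glucose with 1 mM K the potassium-restricted medium, 0.5% glucose with 7 mM K the glucose-restricted medium, and 0.5% glucose with 1 mM K the doubly restricted medium. The labels give 1 batch date for all samples and do not state the growth stage at harvest.

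HSP90 is a dimeric ATP-driven chaperone that helps kinases, receptors and other client proteins reach their active form, and it receives many clients from HSP70. Small heat shock proteins bind unfolding proteins into deposits, from which Hsp104 extracts and refolds them together with HSP70 and its J-domain partners. Heat shock factor 1, the product of HSF1, drives these genes through heat shock elements in their promoters, and Msn2 and Msn4 drive many of the same genes through stress response elements when glucose runs low or cells stop growing.

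The promoter letters that these factors are known to read are shown first, because the genes differ in them. The R64 genome of NCBI RefSeq was searched for 3 forms of the heat shock element. The search covered the 500 bases before each start codon, on both strands. The perfect form is GAA, any 2 bases, TTC, any 2 bases, GAA. The gapped form is TTC, any 2 bases, GAA, any 7 bases, GAA. The step form is TTC repeated in 3 places with any 7 bases between. The forms can overlap each other. At least 1 form was found before 7 of the 10 genes, and before 4.55% of 6000 yeast promoters of the same length. The perfect form alone was found before 5 of the 10 and before 1.483% of all promoters, and the stress response element CCCCT before 5 of the 10 and before 34.07% of all. The matches are given below 5′ to 3′ on the strand of the gene, with the matched bases in capitals and 6 bases on either side.
HSP82, chrXVI:98837-98866, minus strand: ttttttTTCTAGAACGCCGTGGAAgaaaaa
HSC82, chrXIII:632132-632161, plus strand: ttttctTTCTAGAAGGTGAAAGAAcaattt
HSP104, chrXII:88315-88344, plus strand: atatttTTCCAGAATTTTCTAGAAgggtta
HSP78, chrIV:974467-974496, minus strand: gttattTTCCAGAATGTTCTAGAAgtgttc
HSP42, chrIV:806372-806401, plus strand: taaaagTTCTGGAAGGTTCGCGAAttgaga
STI1, chrXV:380805-380829, plus strand: gatatcTTCGTGAAGATTCgtgtag
STI1, chrXV:380831-380855, plus strand: atgataGAACATTCCAGAAaaaaaa
SIS1, chrXIV:619881-619915, minus strand: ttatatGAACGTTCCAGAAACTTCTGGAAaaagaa

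HSP104, HSP78 and HSP42 each have a run in which 2 overlapping perfect matches and 1 gapped match cover the same bases. The HSP90 pair has the gapped form without a perfect one. STI1 has 2 separate perfect elements, and SIS1 has perfect, step and gapped matches in 1 continuous run. The step and gapped matches of SIS1 lie on the bases of its overlapping perfect matches and are not further elements. None of the 3 forms was found before HSP26, YDJ1 or HSF1, which says only that these letters are not in the window searched. The stress response element was found 3 times each before HSP104, HSP78, HSP42 and HSP26 and 2 times before HSP82. It was not found before HSC82, STI1, YDJ1, SIS1 or HSF1. A window of 300 bases that begins 400 bases before the start codon is printed for the HSP90 pair, whose coding sequences are nearly the same and whose promoters differ, and for the small heat shock pair, of which HSP42 has both kinds of element and HSP26 only the stress response element. Capitals mark every match in the window, on either strand, and AGGGG is CCCCT read on the other strand. For HSP26 the window holds 1 stress response element. The other 2 lie 479 to 475 and 461 to 457 bases before the start codon, outside it.
HSP82, chrXVI:98726-99025, minus strand: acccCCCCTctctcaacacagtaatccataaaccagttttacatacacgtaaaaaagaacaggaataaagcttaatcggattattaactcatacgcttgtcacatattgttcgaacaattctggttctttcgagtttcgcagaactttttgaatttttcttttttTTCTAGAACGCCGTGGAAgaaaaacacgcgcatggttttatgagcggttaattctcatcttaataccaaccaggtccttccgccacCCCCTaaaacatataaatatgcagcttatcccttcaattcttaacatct
HSC82, chrXIII:631955-632254, plus strand: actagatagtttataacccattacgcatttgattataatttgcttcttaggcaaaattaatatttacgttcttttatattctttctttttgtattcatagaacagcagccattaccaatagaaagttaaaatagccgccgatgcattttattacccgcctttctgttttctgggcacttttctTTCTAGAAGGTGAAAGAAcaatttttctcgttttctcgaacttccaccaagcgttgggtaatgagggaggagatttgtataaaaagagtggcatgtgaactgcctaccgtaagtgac
HSP42, chrIV:806221-806520, plus strand: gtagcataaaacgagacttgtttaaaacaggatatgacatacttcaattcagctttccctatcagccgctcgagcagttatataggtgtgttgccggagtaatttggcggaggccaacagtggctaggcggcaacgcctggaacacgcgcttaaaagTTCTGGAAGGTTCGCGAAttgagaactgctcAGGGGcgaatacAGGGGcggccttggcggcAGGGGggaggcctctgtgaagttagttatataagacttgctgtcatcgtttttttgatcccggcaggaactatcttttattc
HSP26, chrII:381630-381929, plus strand: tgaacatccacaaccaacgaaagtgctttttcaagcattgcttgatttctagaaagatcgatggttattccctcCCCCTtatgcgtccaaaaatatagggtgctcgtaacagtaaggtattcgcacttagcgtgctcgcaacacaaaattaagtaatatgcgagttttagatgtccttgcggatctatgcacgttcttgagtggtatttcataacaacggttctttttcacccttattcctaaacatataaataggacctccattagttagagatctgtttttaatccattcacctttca

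**Figure D1:**
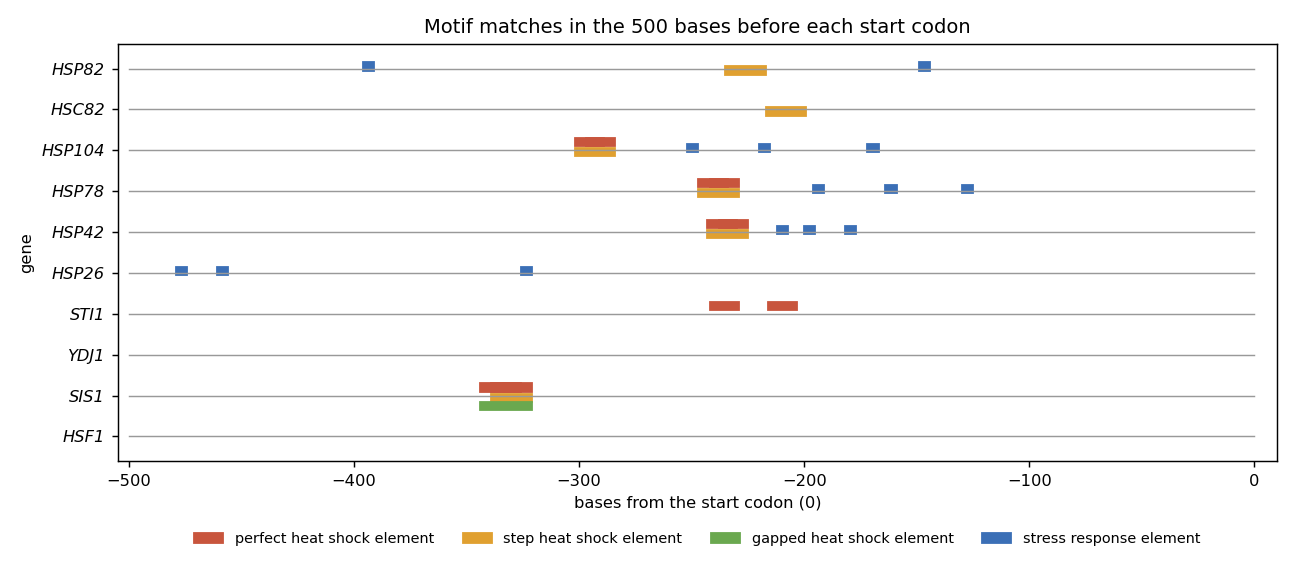
Matches to heat shock and stress response elements in the 500 bases before the start codon of each of the 10 genes, with distance in bases on the x axis and 1 line per gene. The element labelled step in the legend is the gapped form of the text, and the one labelled gapped is the step form. Heat shock elements lie between 200 and 344 bases before the start codon in the 7 genes that have one, and HSP26 has 3 stress response elements and no heat shock element.

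The libraries held 5634205 to 7036345 counts at yeast rows, and levels are given as CPM, a gene's counts relative to the TMM-scaled total of its library. Another 34.0% to 41.6% of all counts were at rows with WBGene identifiers, which no supplied table names. The WBGene scaling used below treats the total of these counts as equal in every library, which was not tested. Replicate 2 of the glucose-restricted medium stood apart from its partners, with a mean correlation of 0.886 with them across genes, against 0.935 to 0.991 for the other 11 libraries. In this library the genes for cytosolic ribosomal proteins were low, with a median log2 difference of -1.79 to its partners' mean. Genes for ribosomal RNA took 0.794% to 1.02% of yeast counts in the control medium, 0.989% to 2.03% in the potassium-restricted, 1.23% to 1.45% in the glucose-restricted and 2.29% to 2.62% in the doubly restricted medium. Of the genes deleted in BY4742, LEU2, LYS2 and URA3 had 0 counts in all 12 libraries, while HIS3, of which the strain is known to keep a part, had 19 to 1087. Of 5 markers of a cells, MFA1 and MFA2 were at 0 in all libraries. STE6 had 240 to 856 counts, STE2 52 to 127 and BAR1 23 to 100, so each was detected in every library. The list summed to 149 to 157 CPM in the control medium and 73.6 to 98.9 in the potassium-restricted medium. Its sum was 114 to 146 CPM in the glucose-restricted and 60.3 to 68.2 in the doubly restricted medium. The 4 markers of alpha cells summed to 338 to 360 CPM in the control medium and 695 to 748 in the potassium-restricted medium. Their sum was 209 to 232 CPM in the glucose-restricted and 923 to 970 in the doubly restricted medium. Singly, MF(ALPHA)1 had 27 to 3745 counts over the 12 libraries, MF(ALPHA)2 22 to 151, STE3 119 to 1614 and SAG1 805 to 2554. With potassium restriction at 2% glucose 2 of them rose and 1 fell in edgeR, where 13.1% and 15.0% of all genes did. With glucose restriction at 7 mM K 3 of them fell, where 17.0% of all genes did. The 5 sporulation markers summed to 52.1 to 73.1 CPM at 2% glucose and 102 to 172 at 0.5% glucose. The part of these shifts in the results below was not tested. In such bulk RNA, fewer cells that express a gene and less RNA per cell cannot be told apart.

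The transcripts of the 10 genes were most abundant in the control medium. Together they took 3.68% to 3.83% of yeast counts there, 1.39% to 1.96% in the potassium-restricted medium, 1.55% to 2.33% in the glucose-restricted medium and 1.67% to 2.41% in the doubly restricted medium. The 3 libraries of the control medium thus lay above the other 9. Every one of the 10 genes was higher in all 3 control libraries than in all 3 potassium-restricted libraries, as were 32.6% of the 6127 genes tested. For glucose restriction at 7 mM K this held for 9 of the 10 genes and 26.0% of all genes, and for both restrictions together for 8 and 34.8%. No gene of the set lay wholly above the control medium in these comparisons. The control libraries are shared by these 3 comparisons, so their results are given side by side and are not independent of each other.

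**Figure D2:**
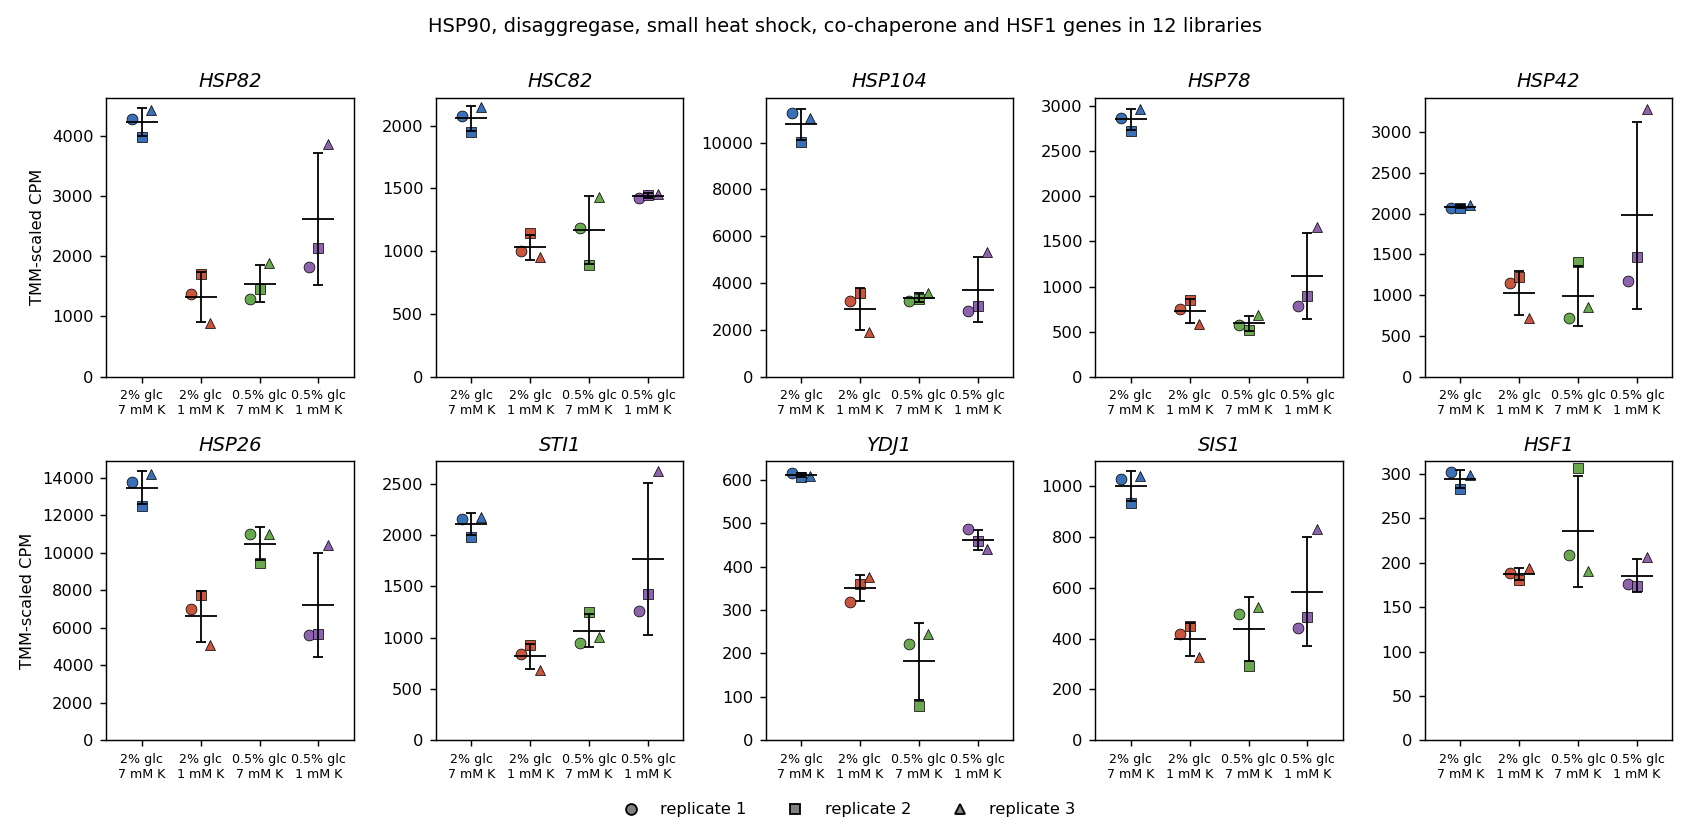
Level of each of the 10 genes in every library as TMM-scaled CPM, by medium (glc, glucose). Bars are the mean and SD of n = 3 replicates and each panel starts at 0. The control medium (2% glucose, 7 mM K) is the highest by mean for every gene, and replicate 3 of the doubly restricted medium lies above its partners for 9 genes.

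Levels of different genes were compared per kilobase of coding sequence, since reads per gene grow with its length. In the control medium, HSP26 led with 20878 ± 1395 CPM per coding kilobase (SD, n = 3, as for all ranges of levels below). HSP104 followed at 3953 ± 241. HSP82 at 1982 ± 108 and HSP42 at 1849 ± 18.5 did not separate, since 1 HSP82 library lay within the range of HSP42. Next came STI1 at 1189 ± 60.0 and HSP78 at 1171 ± 48.7, whose libraries overlapped. HSC82 at 972 ± 47.7 and SIS1 at 943 ± 54.5 also overlapped. YDJ1 at 496 ± 3.87 and HSF1 at 118 ± 4.02 were the lowest, and both stood apart from the gene above them. A transcription factor thus had the lowest level per length of the set and a small heat shock gene the highest.

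HSP82 (YPL240C, chrXVI:96496-98625, minus strand) encodes the stress-inducible HSP90 and HSC82 (YMR186W, chrXIII:632355-634472, plus strand) the form made in all conditions. Coordinates are those of the coding region in build R64, and none of the 10 genes overlapped another annotated gene. The 2 coding sequences are 91.65% identical with a longest shared run of 113 bases, so no 150-base read that matches exactly fits both, but the division of reads between them rests on the authors' estimate. HSP82 measured 4274, 3970 and 4419 CPM in replicates 1, 2 and 3 of the control medium and 1378, 1709 and 884 in the potassium-restricted medium. It measured 1296, 1461 and 1879 CPM in the glucose-restricted medium and 1828, 2141 and 3865 in the doubly restricted medium. The control libraries were above every other library, and replicate 3 of the doubly restricted medium came closest to them. HSP82 fell 3.19-fold with potassium restriction at 2% glucose (log2 change -1.67 ± 0.34, SE as for all log2 changes here, adjusted p = 0.00357 in edgeR). Its fall with glucose restriction at 7 mM K was 2.73-fold (-1.45 ± 0.34, adjusted p = 0.00613). With both restrictions the change was -0.69 ± 0.33 and did not pass (adjusted p = 0.104).

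HSC82 measured 2077, 1950 and 2150 CPM in the control medium and 1003, 1143 and 952 with potassium restriction. Its levels were 1185, 889 and 1429 CPM with glucose restriction and 1421, 1450 and 1455 with both. The control libraries were again above all others, and the doubly restricted libraries lay within a narrow band. HSC82 fell 1.99-fold with potassium restriction (-0.996 ± 0.22, adjusted p = 0.00635) and 1.76-fold with glucose restriction (-0.82 ± 0.22, adjusted p = 0.0142). With both restrictions the change was -0.51 ± 0.22 (adjusted p = 0.0748). Both calls of HSC82 were lost when libraries were scaled by their WBGene counts or by plain yeast totals, and the call for glucose restriction also without replicate 3 of the control medium. Counted as 1 feature, HSP82 and HSC82 together fell 2.67-fold with potassium restriction (adjusted p = 0.00315) and 2.31-fold with glucose restriction (adjusted p = 0.00578). This sum does not depend on how reads were divided between the pair.

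HSP104 (YLL026W, chrXII:88623-91349, plus strand) encodes the cytosolic disaggregase, and HSP78 (YDR258C, chrIV:971808-974243, minus strand) its relative in mitochondria. HSP104 measured 11255, 10029 and 11056 CPM in the control medium and 3242, 3564 and 1894 with potassium restriction. With glucose restriction it measured 3220, 3328 and 3573 CPM, and with both 2811, 3019 and 5307. The control libraries were well above the highest other library, at 5307 CPM, and the 3 restricted media overlapped. HSP104 fell 3.72-fold with potassium restriction (-1.89 ± 0.32, adjusted p = 0.00121), 3.20-fold with glucose restriction (-1.68 ± 0.32, adjusted p = 0.00186) and 2.90-fold with both (-1.54 ± 0.32, adjusted p = 0.00216). These calls held in every setting tried.

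HSP78 measured 2867, 2727 and 2963 CPM in the control medium and 751, 849 and 584 with potassium restriction. It measured 574, 522 and 687 CPM with glucose restriction and 783, 899 and 1660 with both. No restricted library reached a control library, and all 3 doubly restricted libraries were above the 3 glucose-restricted ones. HSP78 had the largest fall of the 10 genes in both single restrictions, 3.92-fold with potassium restriction (-1.97 ± 0.30, adjusted p = 0.000633) and 4.80-fold with glucose restriction (-2.26 ± 0.31, adjusted p = 0.000192). With both it fell 2.56-fold (-1.36 ± 0.30, adjusted p = 0.00305). These 3 calls also held in every setting tried.

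HSP42 (YDR171W, chrIV:806621-807748, plus strand) encodes the small heat shock protein that gathers misfolded proteins into cytosolic deposits at all temperatures, and HSP26 (YBR072W, chrII:382030-382674, plus strand) a small heat shock protein activated by heat and abundant in stationary phase. HSP42 measured 2073, 2073 and 2109 CPM in the control medium, 1145, 1225 and 716 with potassium restriction, 720, 1406 and 850 with glucose restriction and 1177, 1470 and 3288 with both. The control libraries lay above both single restrictions, while the doubly restricted libraries lay on both sides of them. The log2 change was -1.02 ± 0.40 with potassium restriction (adjusted p = 0.0756), -1.07 ± 0.40 with glucose restriction (adjusted p = 0.0565) and -0.08 ± 0.39 with both (adjusted p = 0.886), and none passed. Without replicate 2 of the glucose-restricted medium, where HSP42 was 1.79 times the mean of its partners, the first 2 passed at -1.0 (adjusted p = 0.0211) and -1.41 (adjusted p = 0.00875). That library is in neither group of the potassium comparison at 2% glucose, but leaving it out changes the genes tested, their scaling and the shared estimate of spread.

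HSP26 measured 13739, 12462 and 14198 CPM in the control medium and 6998, 7749 and 5086 with potassium restriction. With glucose restriction it measured 11011, 9447 and 10977 CPM, and with both 5604, 5653 and 10410. The glucose-restricted libraries were between the control and the potassium-restricted ones and overlapped neither. HSP26 fell 2.04-fold with potassium restriction (-1.03 ± 0.30, adjusted p = 0.0247) and 1.86-fold with both (-0.90 ± 0.30, adjusted p = 0.0273). With glucose restriction alone the change was -0.36 ± 0.30 and did not pass (adjusted p = 0.371). Its call for potassium restriction was lost in 4 of the 12 fits without 1 library, with a replicate block and with WBGene scaling, and its call for both restrictions in 4 of the 12.

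STI1 (YOR027W, chrXV:381053-382822, plus strand) encodes the adaptor that joins HSP70 to HSP90. It measured 2155, 1982 and 2176 CPM in the control medium, 837, 933 and 688 with potassium restriction, 950, 1254 and 1006 with glucose restriction and 1259, 1424 and 2620 with both. The single restrictions did not overlap with the control or with each other, and the doubly restricted group overlapped with the control through replicate 3. STI1 fell 2.57-fold with potassium restriction (-1.36 ± 0.29, adjusted p = 0.00505) and 1.97-fold with glucose restriction (-0.98 ± 0.29, adjusted p = 0.0221). With both the change was -0.25 ± 0.29 (adjusted p = 0.487). The call for glucose restriction was lost in 4 of the 12 fits without 1 library.

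YDJ1 (YNL064C, chrXIV:505868-507097, minus strand) and SIS1 (YNL007C, chrXIV:618507-619565, minus strand) encode the main cytosolic J-domain proteins, which hand substrates to HSP70 and switch on its ATPase. YDJ1 measured 615, 606 and 608 CPM in the control medium, 318, 359 and 375 with potassium restriction, 222, 79.1 and 244 with glucose restriction and 487, 458 and 441 with both. None of the 4 media overlapped for YDJ1, and the order ran from control over double and potassium restriction to glucose restriction. YDJ1 fell 3.35-fold with glucose restriction (-1.74 ± 0.33, adjusted p = 0.00168), but its change of -0.80 ± 0.32 with potassium restriction did not pass (adjusted p = 0.0824), nor did -0.40 ± 0.32 with both (adjusted p = 0.314). The library that stood apart held 0.340 times the YDJ1 level of its partners. Without it the fall with glucose restriction was -1.39 (adjusted p = 4.42e-06), and the changes passed at -0.78 with potassium restriction (adjusted p = 0.000162) and at -0.39 with both (adjusted p = 0.0124).

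SIS1 measured 1026, 933 and 1038 CPM in the control medium, 418, 449 and 326 with potassium restriction, 497, 291 and 522 with glucose restriction and 440, 484 and 829 with both. The control libraries were above all others, and the 3 restricted media overlapped. SIS1 fell 2.51-fold with potassium restriction (-1.33 ± 0.29, adjusted p = 0.00605), 2.29-fold with glucose restriction (-1.19 ± 0.29, adjusted p = 0.00843) and 1.71-fold with both (-0.77 ± 0.29, adjusted p = 0.0457). The last call was lost in 5 of the 12 fits without 1 library and with a replicate block.

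HSF1 (YGL073W, chrVII:368753-371254, plus strand) encodes the essential transcription factor of the heat shock response, whose activity is set largely by release from HSP70 and so need not follow its transcript. It measured 302, 283 and 299 CPM in the control medium, 188, 180 and 194 with potassium restriction, 208, 307 and 191 with glucose restriction and 176, 174 and 207 with both. The 1 high glucose-restricted value is that of the library that stood apart, and it exceeded every control library. HSF1 fell 1.57-fold with potassium restriction (-0.65 ± 0.18, adjusted p = 0.0186) and 1.59-fold with both restrictions (-0.67 ± 0.18, adjusted p = 0.00952). With glucose restriction the change was -0.32 ± 0.18 (adjusted p = 0.181), and it passed at -0.56 (adjusted p = 0.00289) without that library. The call for potassium restriction was lost in 5 of the 12 fits without 1 library, with upper-quartile scaling and with WBGene scaling.

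Counted over the set, potassium restriction at 2% glucose lowered 8 of the 10 genes, where 15.0% of all tested genes fell, and HSP42 and YDJ1 did not pass edgeR's test. DESeq2 called all 10 lower and limma voom 8. With WBGene scaling 5 of the 10 fell, where 5.21% of all genes did. The median log2 change of the 10 was -1.18, against -0.00 over all genes. Glucose restriction at 7 mM K lowered 7 of the 10, where 17.0% of all genes fell, and HSP42, HSP26 and HSF1 did not pass. Here the median was -1.13 against 0.03 over all genes. Both restrictions together lowered 5 of the 10, namely HSP104, HSP78, HSP26, SIS1 and HSF1, where 24.5% of all genes fell, with a median of -0.68 against 0.03. Each of the 10 genes had a negative value in these comparisons under every scaling tried. Without replicate 2 of the glucose-restricted medium the counts were 10, 9 and 7, in fits in which 23.9%, 21.8% and 31.3% of all genes fell. The set was chosen with earlier results of these data known, so these counts describe it and do not single it out.

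**Figure D3:**
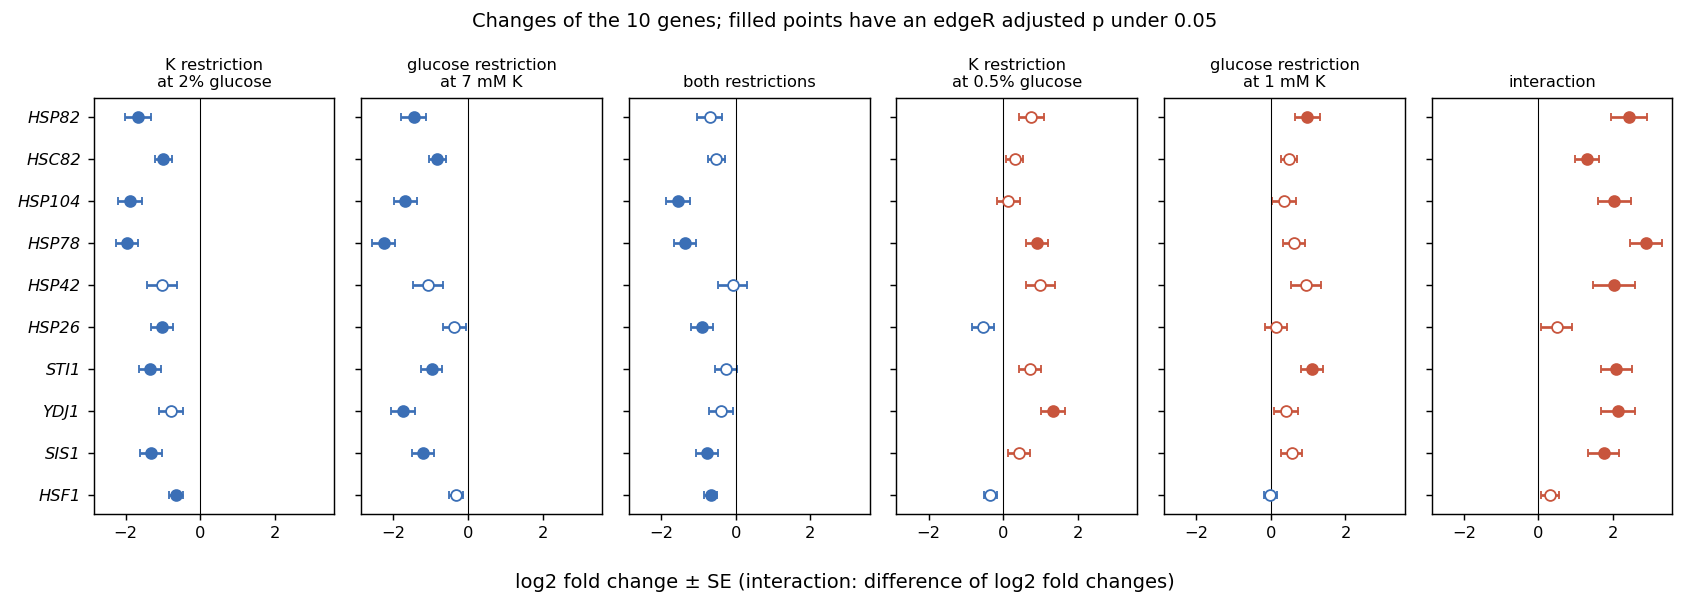
Log2 fold change with SE of each of the 10 genes in 5 pairwise comparisons, and the difference of 2 log2 fold changes in the interaction, from edgeR on all 12 libraries. Filled points passed an adjusted p under 0.05. Points lie to the left in the 3 comparisons against the control medium and mostly to the right in the others, where the unfilled points for HSP104, HSP26, HSC82, YDJ1 and HSF1 can change sign with the scaling.

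Where 1 nutrient was already low, lowering the other raised few of the 10 genes in the fit to all 12 libraries, at a share near that of all genes. More passed without replicate 2 of the glucose-restricted medium. HSP42, HSP78, STI1 and YDJ1 then rose with potassium restriction at 0.5% glucose, where 29.6% of all genes did. With glucose restriction at 1 mM K, HSP82, HSC82, HSP42, STI1, YDJ1 and SIS1 rose in that fit, where 24.2% of all genes did. At 0.5% glucose, lowering potassium raised 2 of the 10, where 23.5% of all genes rose, and the median of the 10 was 0.57 against -0.02 over all genes. HSP78 rose 1.87-fold (0.91 ± 0.29, adjusted p = 0.0241) and YDJ1 2.54-fold (1.34 ± 0.32, adjusted p = 0.00527). The HSP78 call was lost without replicate 3 of the doubly restricted medium (0.49), without replicate 1 of the glucose-restricted medium and in a fit to the compared groups alone. With WBGene scaling both calls were lost and 2 other genes fell, HSP26 at -0.90 (adjusted p = 0.0316) and HSF1 at -0.61 (adjusted p = 0.0162), where 30.5% of all genes fell. At 1 mM K, lowering glucose also raised 2, where 16.3% of all genes rose, with a median of 0.52 against -0.02. HSP82 rose 1.97-fold (0.98 ± 0.33, adjusted p = 0.0391) and STI1 2.16-fold (1.11 ± 0.29, adjusted p = 0.0118). The HSP82 call was lost in 6 of the 12 fits without 1 library, with library totals (0.69) and with a replicate block (0.92), and both calls were lost with WBGene scaling.

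Replicate 3 of the doubly restricted medium was high for most of the set. It lay above both partners for 9 of the 10 genes, at 2.49 times their mean for HSP42 and 1.97 times for HSP78, while YDJ1 was at 0.933 times the mean. The call of STI1 at 1 mM K held without this library at 0.70 (adjusted p = 0.0370), whereas HSP82 was at 0.58 (adjusted p = 0.152). For HSP104 the change with potassium at 0.5% glucose was 0.14 ± 0.31 with all libraries and -0.23 without this one, and neither passed. HSP26 was at -0.54 ± 0.30 (adjusted p = 0.157) in that comparison and passed as a fall without this library (-0.91, adjusted p = 0.00889).

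The effect of potassium differed with the glucose supply for 8 of the 10 genes, that is, all but HSP26 and HSF1, where 14.8% of all genes had an interaction in the same direction. The interaction is the log2 change with potassium at 0.5% glucose minus that at 2% glucose. It was 2.88 ± 0.42 for HSP78 (adjusted p = 0.000529), 2.43 ± 0.47 for HSP82 (adjusted p = 0.00284) and 2.14 ± 0.45 for YDJ1 (adjusted p = 0.00464). STI1 had 2.08 ± 0.41 (adjusted p = 0.00301), HSP104 2.03 ± 0.45 (adjusted p = 0.00551), HSP42 2.02 ± 0.56 (adjusted p = 0.0189) and SIS1 1.75 ± 0.41 (adjusted p = 0.00810). HSC82 had the smallest called value, 1.3 ± 0.31 (adjusted p = 0.00901). HSP26 at 0.49 ± 0.42 (adjusted p = 0.407) and HSF1 at 0.31 ± 0.25 (adjusted p = 0.387) did not pass, and both turned negative with WBGene scaling. The median of the 10 was 2.02, against -0.02 over all genes. With WBGene scaling 5 of the 8 calls held, those of HSC82, YDJ1 and SIS1 being lost, and the HSC82 call was also lost with library totals (0.95). The median over all genes moved to -0.63 with WBGene scaling while that of the 10 was 1.41. Without the glucose-restricted library that stood apart HSF1 passed at 0.54 (adjusted p = 0.0180).

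Set against each other, the 2 single restrictions differed for 1 of the 10 genes, where they differed for 43.9% of all genes. Higher with potassium restriction were 20.9% of all genes. YDJ1 was 1.93-fold higher with potassium than with glucose restriction (0.95 ± 0.32, adjusted p = 0.0321). Without the glucose-restricted library that stood apart the value was 0.61 (adjusted p = 0.00280), and HSP26 then passed in the other direction at -0.72 (adjusted p = 0.0423). With all libraries HSP26 was at -0.66 ± 0.30 (adjusted p = 0.0895). The YDJ1 call was lost when the fit held these 2 groups alone, with library totals, with WBGene scaling and without replicate 2 or replicate 3 of the potassium-restricted medium. For the other 8 genes the difference lay between -0.38 for STI1 and 0.29 for HSP78 with SEs up to 0.39, which does not show that the restrictions act alike on them.

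Ratios within a library compare paired genes without any scaling. The count ratio of HSP82 to HSC82 was 2.06, 2.04 and 2.06 in replicates 1, 2 and 3 of the control medium. It ranged from 0.929 to 1.49 with potassium restriction, from 1.09 to 1.64 with glucose restriction and from 1.29 to 2.66 with both. The 3 control values were above those of both single restrictions, and the doubly restricted libraries lay on both sides of them. The ratio of HSP26 to HSP42 was 6.46 ± 0.390 in the control medium, 6.51 ± 0.520 with potassium restriction, 11.6 ± 4.43 with glucose restriction and 3.92 ± 0.801 with both. At 0.5% glucose the ratio was lower in all 3 libraries at 1 mM K than in all 3 at 7 mM K, and at 2% glucose the groups overlapped. For HSP104 to HSP78 the ratio was 3.78 ± 0.131, 3.92 ± 0.589, 5.73 ± 0.598 and 3.38 ± 0.198 in the same order. The glucose-restricted libraries thus had the highest values of the 12 for this ratio.

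Of 6 tests of these ratios, an effect of potassium or of glucose for each pair over both levels of the other nutrient, none passed in an exact two-sided permutation test within strata of 400 relabellings. The smallest p that this design allows is 0.005. The log2 ratio of HSP26 to HSP42 changed by -0.75 at 1 mM K against 7 mM K (exact permutation p = 0.06, adjusted over the 6 tests to 0.18), and that of HSP104 to HSP78 differed by -0.36 (p = 0.06, adjusted p = 0.18). For HSP82 to HSC82 the differences were -0.18 with potassium (adjusted p = 0.75) and -0.08 with glucose (adjusted p = 0.924). In each pair the difference within 1 level of the other nutrient had the opposite sign to that within the other level, and the test averages over both. For HSP82 to HSC82 it was -0.72 with potassium restriction at 2% glucose and 0.36 at 0.5% glucose. The potassium differences of the other pairs were very small at 2% glucose. HSP26 to HSP42 had 0.011 there and -1.51 at 0.5% glucose, and HSP104 to HSP78 had 0.041 and -0.76.

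**Figure D4:**
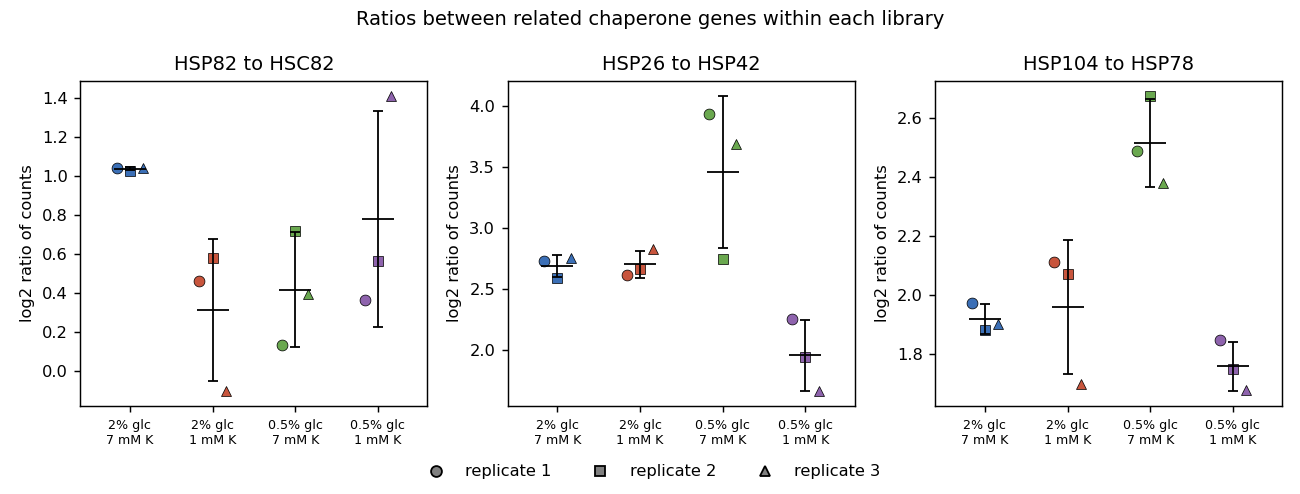
Log2 ratio of counts of HSP82 to HSC82, HSP26 to HSP42 and HSP104 to HSP78 in every library, by medium (glc, glucose). Lines and bars are the mean and SD of n = 3. The HSP82 to HSC82 ratio lies close to 1.04 on this scale in the control medium and is lower and more spread with either restriction, and the other ratios are highest by mean with glucose restriction alone.

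The wider chaperone network was described from 8 lists of 95 genes, none of them a member of the set. These genes were not examined without replicate 3 of the doubly restricted medium, a library that was high for most of the set. With potassium restriction at 2% glucose 15.0% of all tested genes fell and 13.1% rose, and with glucose restriction at 7 mM K 17.0% fell and 16.9% rose, so the list counts are to be read against these shares. Without the glucose-restricted library that stood apart the shares were 23.9% and 26.6%, and 21.8% and 22.0%. With WBGene scaling they were 5.21% and 14.1%, and 9.09% and 17.2%. The interaction passed in the positive direction for 14.8% of all genes and in the negative for 15.2%. These interaction shares were 23.9% and 23.6% without the library that stood apart, and 5.55% and 26.7% with WBGene scaling. Among 11 genes of cytosolic HSP70 and its exchange factors, potassium restriction at 2% glucose lowered 6 and raised 1, with a median of -0.74. SSA4, a stress-inducible HSP70, fell by 4.26 on the log2 scale (SE 0.39, adjusted p = 1.98e-05), from 5039 ± 493 to 264 ± 19.5 CPM. SSE2, an HSP110 exchange factor, fell by 2.67 (adjusted p = 6.23e-05), while SSZ1, a ribosome-bound HSP70, rose by 1.03 (adjusted p = 0.0113). Glucose restriction at 7 mM K lowered 6 of the 11, with a median of -1.38, among them SSA4 at -3.53 (adjusted p = 3.50e-05) and the constitutive SSA2 at -2.63 (adjusted p = 2.32e-06). SSA2 measured 1094 ± 24.5 CPM in the control medium, 177 ± 11.6 with glucose restriction and 1183 ± 90.7 with both. The interaction passed for 8 of the 11 in the positive direction, with a median of 1.94. With WBGene scaling 3 of the 11 fell with potassium restriction and 5 with glucose restriction, and the median was -0.44 in the first. Without the library that stood apart 6 fell in each, with 3 rather than 1 rising in the first, and the median with glucose restriction was -0.85.

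Of 11 HSP90 co-chaperone genes, 2 fell and 1 rose with potassium restriction at 2% glucose, and the median was -0.12. CPR6, a cyclophilin that binds HSP90, fell by 1.10 (adjusted p = 0.0200) and AHA1, which stimulates the HSP90 ATPase, fell by 0.62 (adjusted p = 0.0206), while SBA1, the yeast p23, rose by 0.60 (adjusted p = 0.0264). Glucose restriction at 7 mM K lowered 3 and raised 1, with CPR6 at -2.16 (adjusted p = 0.000319) and AHA1 at -1.66 (adjusted p = 3.83e-05). CPR6 and AHA1 were also the 2 with an interaction, 3.78 ± 0.44 (adjusted p = 0.000144) and 1.55 ± 0.25 (adjusted p = 0.000881). CPR6 measured 804 ± 27.5 CPM in the control medium and 376 ± 75.2, 180 ± 26.6 and 1153 ± 554 with potassium, glucose and both restrictions. With WBGene scaling the list's median for potassium restriction turned to 0.19, and CPR6 and AHA1 no longer passed there. The interaction then counted 3 genes in the negative direction beside these 2, where 26.7% of all genes were negative. Without the library that stood apart 3 genes rose and 3 fell with potassium restriction. The interaction passed in 3 positive and 1 negative, where 23.9% and 23.6% of all genes did. DESeq2 called 3 positive interactions, where 18.4% of all genes had one. The AHA1 call for potassium restriction was also lost with library totals.

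Of 10 genes of aggregate sorting and protein quality control, 5 fell with potassium restriction at 2% glucose (median -0.75) and 6 with glucose restriction at 7 mM K (median -0.63). CUR1, which sorts misfolded proteins to deposits, fell by 1.42 (adjusted p = 0.00167) and by 1.88 (adjusted p = 0.000219). BTN2, a sorting factor related to CUR1, had an interaction of 3.71 ± 0.65 (adjusted p = 0.00158), and its levels were 346 ± 38.0, 197 ± 92.5, 135 ± 38.1 and 1000.4 ± 664 CPM in the control, potassium-restricted, glucose-restricted and doubly restricted media. Of 11 other J-domain genes, 1 fell and 1 rose with potassium restriction (median -0.22) and 1 fell with glucose restriction (median -0.11). APJ1, a J-domain gene of the YDJ1 class, reached 990 ± 640 CPM in the doubly restricted medium from 232 ± 14.5 in the control medium, and its interaction was 3.12 ± 0.54 (adjusted p = 0.00140). The sorting list counted 2 and 4 falls with WBGene scaling, and 6 and 6 without the library that stood apart. The J-domain list then counted 4 and 3 falls without that library, and its medians turned to 0.08 and 0.11 with WBGene scaling.

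Of 10 mitochondrial chaperone genes, the compartment of HSP78, 1 fell with potassium restriction at 2% glucose (median -0.32), and without the library that stood apart 4 fell and 1 rose. With WBGene scaling 0 fell and 1 rose, and the median was -0.01. With glucose restriction at 7 mM K 4 fell and 2 rose (median -0.28), and the chaperonin genes HSP60 at -1.50 (adjusted p = 0.00296) and HSP10 at -1.11 (adjusted p = 0.00577) were among those that fell. That median was -0.14 without the library that stood apart and -0.06 with WBGene scaling, which also ended the HSP10 call (-0.85, adjusted p = 0.0650). Of 14 genes of the chaperonin TRiC and prefoldin, 0 passed edgeR's test with potassium restriction at 2% glucose, where the median was 0.42, 5 had an unadjusted p under 0.05, and DESeq2 and limma voom also called 0. Without the same library 7 of the 14 rose, in a fit in which 26.6% of all genes did. Glucose restriction at 7 mM K lowered 2 of them (median -0.06), the prefoldin genes GIM3 at -1.48 (adjusted p = 0.00634) and PAC10 at -1.20 (adjusted p = 0.00254), and with WBGene scaling both calls were lost and the median turned to 0.15. Without the library that stood apart the median was 0.03.

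Of 20 targets of Msn2 and Msn4, potassium restriction at 2% glucose lowered 4 (median -0.28), and glucose restriction at 7 mM K lowered 4 and raised 3 (median -0.03). These shares lie near those of all genes. Without the library that stood apart these counts were 7 falls, and 8 falls with 2 rises, and the median with glucose restriction was -0.34. With WBGene scaling both medians turned positive, to 0.02 and 0.10, and 3 and 2 genes fell. SPI1, which encodes a cell wall protein, had an interaction of 5.97 ± 0.84 (adjusted p = 0.000432) and reached 4388 ± 2824 CPM in the doubly restricted medium from 972 ± 95.7 in the control medium. Of 8 stress transcription regulators, 2 fell with potassium restriction (median -0.57) and 3 with glucose restriction (median -0.46), or 7 and 5 without that library. With WBGene scaling 1 fell with potassium restriction, and 1 fell and 1 rose with glucose restriction. MSN4 itself fell by 2.86 (adjusted p = 2.51e-05) and by 3.91 (adjusted p = 2.32e-06), from 1548 ± 176 CPM in the control medium to 214 ± 66.7 and 103 ± 23.2. It was at 122 ± 4.74 CPM with both restrictions. RIM15, a kinase needed for entry into quiescence, fell by 0.87 (adjusted p = 0.00325) and by 0.66 (adjusted p = 0.0115) in the same comparisons, and lost both calls with WBGene scaling and with library totals.

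**Figure D5:**
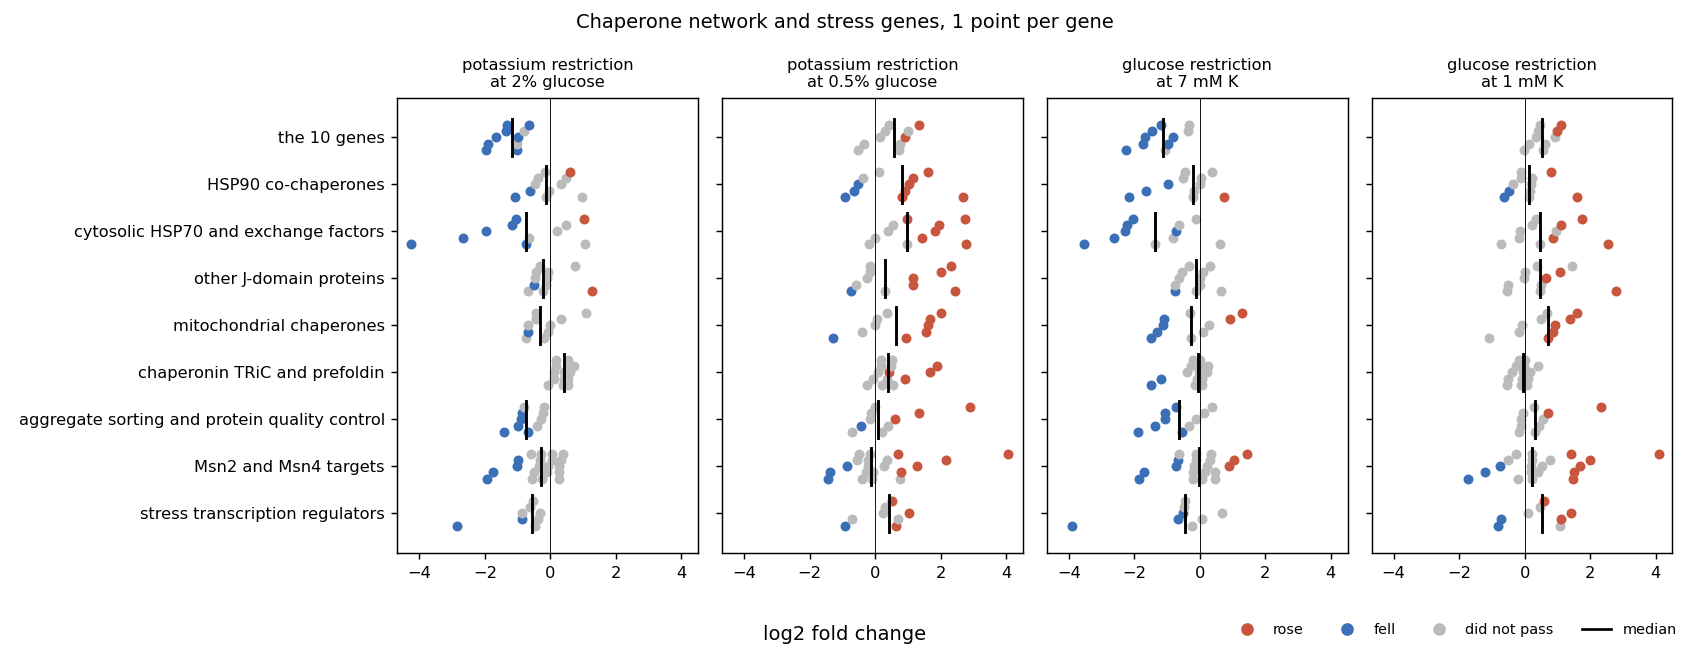
Log2 fold change of each gene of the set and of the 8 chaperone and stress lists in the 4 comparisons that change 1 nutrient, with 1 point per gene and a black line at the median of the list. Points are coloured where the edgeR adjusted p is under 0.05. The HSP70 list has its median at -0.74 with potassium restriction at 2% glucose and at -1.38 with glucose restriction at 7 mM K, which is -0.85 without the library that stood apart.

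The profiles of 5 of the genes over the 12 libraries were compared with all tested genes of at least 10 CPM, by the root-mean-square difference of log2 CPM after centring each gene on its mean. Outside the set, HSF1 was most like PEX30 at 0.0612, ENT2 at 0.0968 and MDM38 at 0.101. HSC82 was most like DGK1 at 0.151, SGT2 at 0.162 and HRT3 at 0.162, and HSP26 like OAF1 at 0.165, GPB1 at 0.201 and PLB1 at 0.202. The likest genes to HSP104 were YLL056C at 0.235, ARG7 at 0.268 and YJR096W at 0.275. Those to HSP82 were VID24 at 0.278, EAR1 at 0.285 and UBP9 at 0.317. The measure is not scaled to how much a gene varies, so genes that change little tend to have closer neighbours. Within the set the closest pair was HSP42 and STI1 at 0.242, and the nearest member to HSP82 was STI1 at 0.260, not HSC82.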

How the data were processed

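Paired-end RNA-seq was run on 12 libraries of BY4742, 3 biological replicates in each of 4 media. The submitters' processing notes name the genome build R64, the aligner STAR (2.7.1a) and the quantifier RSEM (1.3.3). The deposited values are expected counts per gene. All were whole numbers, so the authors may have rounded them, and no further rounding was needed. Whether counting used strand is not given in the sources used here. Of 7127 SGD rows, 6444 (90.4%) matched the R64 annotation of RefSeq, which gave names and coordinates. The 39777 WBGene rows were used only for 1 alternative scaling.

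A default edgeR filter left 6127 genes, and TMM factors were computed on the SGD rows alone. With edgeR 4.0.16, a robust quasi-likelihood model with 1 mean per medium was fitted to all 12 libraries, with 8 residual degrees of freedom and a common biological coefficient of variation of 0.2405. P-values were adjusted with Benjamini-Hochberg over all tested genes in each of 7 comparisons, called at an adjusted p under 0.05, and measure the spread among the labelled replicates. Libraries held 5634205 to 7036345 yeast counts. Precision therefore rests mainly on the replicates.

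The members, the lists of related genes and the tests were chosen with earlier results of these data known. Named genes were all 10 members, up to 2 called genes per direction and list with the smallest p in each comparison, and the 3 nearest profiles of 5 members. A gene named in 1 comparison may be given in another. Alternatives were DESeq2 1.42.0, limma voom 3.58.1, RLE, upper-quartile, library-total and WBGene scaling, 2 other count filters, a replicate block, fits restricted to the media compared, HSP82 and HSC82 summed, and leaving out each library. List counts under WBGene scaling and without the library that stood apart were added after seeing the data. The fit was also run on simulated data with known changes in 1 medium. Those data held no library that stands apart, so the run does not show how the fit behaves here. Same-numbered replicates did not deviate together, so the numbers were not taken to pair samples. The software was R 4.3.3 and Python 3.11.15 with pandas 2.3.3, numpy 2.4.6, matplotlib 3.10.9 and Biopython 1.88.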

Additional observations from a re-analysis of the deposited data

Results flagged for a closer look

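The effect of potassium differed between the 2 glucose levels for 8 of the 10 genes, by edgeR's test of the interaction itself. The log2 change at 0.5% glucose minus that at 2% glucose was 2.88 for HSP78, 2.43 for HSP82, 2.14 for YDJ1, 2.08 for STI1, 2.03 for HSP104, 2.02 for HSP42, 1.75 for SIS1 and 1.3 for HSC82. In each the change at 2% glucose was negative and that at 0.5% glucose positive, of which HSP78 and YDJ1 passed at 0.5% glucose. The changes at 0.5% glucose turned to -0.049 for HSC82 and -0.21 for HSP104 with WBGene scaling, and that of HSP104 to -0.23 without replicate 3 of the doubly restricted medium. Replicate 3 of the doubly restricted medium lay above its partners in 7 of these 8 genes, and without it the interaction still passed in all 8, with HSP42 at 1.40 (adjusted p = 0.0395).

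Rows with WBGene identifiers, which the comparisons do not use, took at least 34.0% of all counts in each of the 12 libraries, and 13338 of these rows had counts. What they measure was not tested.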

How the results depend on the processing

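Of 1586 values of single genes under an alternative, 1455 kept their direction and their side of the threshold, 56 lost and 52 gained a call, and 23 reversed, none of them called. The number of the 10 genes called was 8 for potassium restriction at 2% glucose, 10 with DESeq2 or the compared groups alone and 5 with WBGene scaling. Of all genes, 28.1% were called in the main fit, 34.8% with DESeq2, 55.9% with the compared groups alone and 19.3% with WBGene scaling. For potassium at 0.5% glucose 2 of the 10 were called, against 5 with DESeq2, 5 with library totals and 1 with the compared groups alone. WBGene scaling gave 2 falls in place of 2 rises. The shares of all genes called were 48.4%, 52.8%, 42.6%, 29.8% and 41.4%, in the same order. For glucose at 1 mM K 2 of the 10 were called, against 5 with DESeq2, 1 with library totals, 1 with a replicate block and 0 with WBGene scaling. Here the shares of all genes were 34.8%, 39.0%, 34.7%, 30.5% and 36.1%. For both restrictions 5 of the 10 were called, and 8 with the compared groups alone, where 47.4% and 65.1% of all genes were. For the single restrictions against each other 1 of the 10 was called. This became 2 with DESeq2 and 0 with WBGene scaling, library totals or the compared groups alone. The shares of all genes were 43.9%, 49.0%, 27.5%, 35.0% and 24.1%, in that order. For the interaction 8 of the 10 were called, and 5 with WBGene scaling, where 29.9% and 32.3% of all genes were. Leaving out 1 library at a time gave 6 to 10 for potassium at 2% glucose, 1 to 5 at 0.5% glucose, 5 to 9 for glucose at 7 mM K, 1 to 6 at 1 mM K, 3 to 7 for both, 0 to 2 for the restrictions against each other and 8 to 9 for the interaction. The shares of all genes in these fits were 17.4% to 50.5% and 39.4% to 57.8% for potassium at 2% and 0.5% glucose. For glucose at 7 and 1 mM K they were 23.6% to 43.8% and 27.0% to 51.1%. In the remaining comparisons they were 36.9% to 64.7%, 33.6% to 48.2% and 22.1% to 47.5%, in the same order. The causes of these differences were not tested, except that fits without a library or with fewer groups hold fewer samples.

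Reversed values were small. With WBGene scaling they were -0.049 for HSC82 and -0.21 for HSP104 (potassium, 0.5% glucose), -0.090 for HSP104, -0.32 for HSP26 and -0.022 for YDJ1 (glucose, 1 mM K), and -0.27 for HSF1 and -0.17 for HSP26 (interaction). For glucose at 1 mM K, HSF1 came to 0.0073 with DESeq2 and 0.0074 with RLE, and HSP26 to -0.16 with library totals and -0.0035 with upper-quartile scaling. Without 1 library the values ran from -0.12 to 0.0010 for HSF1, -0.0011 to 0.49 for HSP104 and -0.24 to 0.24 for HSP26 (glucose, 1 mM K), -0.23 to 0.26 for HSP104 (potassium, 0.5% glucose), -0.66 to 0.15 for HSP42 (both), and -0.16 to 0.40 for HSP42 and -0.34 to 0.0066 for SIS1 (restrictions against each other). The glucose effect on the log2 ratio ran from -0.11 to 0.19 for HSP26 to HSP42 and from -0.23 to 0.027 for HSP82 to HSC82.

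WBGene scaling moved the median log2 change of all genes to 0.30 and -0.34 for potassium at 2% and 0.5% glucose, 0.23 and -0.45 for glucose at 7 and 1 mM K, and -0.63 for the interaction. The replicate block changed 3 single calls. Same-numbered libraries of different media correlated in their deviations at -0.366 to 0.328, over 0.1 in 3 of 18 pairs. With 3 replicates per medium, 1 library apart and levels that are shares of all yeast counts, small changes are not resolved.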
